A study of Mus musculus with 40 samples.

Results

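Wild-type (WT) mouse bladder urothelial cells grown as organoids were given MI-503 at 1 µM for 4 days and compared with WT organoids given the solvent DMSO for the same time. The comparison takes every column of these groups in the count table, 2 libraries in each. That makes 4 of the 8 polyA RNA-seq libraries and 4 of the 40 samples of the series. It covers 16921 genes that passed a filter on low counts, of 53465 in the table. The other 4 RNA-seq libraries come from organoids whose label gives both Kmt2c and Kmt2d as knocked out (dKO), again with DMSO or with MI-503 at the same dose and time. They helped to estimate the spread and stand beside the WT values where stated. Every group grew in advanced DMEM/F12 with B27, media conditioned with the BMP antagonist Noggin and the WNT amplifier R-spondin, epidermal growth factor (EGF), the ROCK inhibitor Y-27632, the TGF-beta receptor inhibitor A83-01, N-acetyl-L-cysteine, glutamine and antibiotics. The DMSO organoids carry these agents too. The labels do not say whether the libraries of a group came from separate cultures. The p-values therefore rest on the spread from library to library alone, and that spread may be technical.

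Menin, the product of Men1, is a scaffold protein that holds the histone H3K4 methyltransferases KMT2A and KMT2B at promoters, and MI-503 is a small molecule that occupies the pocket of menin into which KMT2A fits. Outside this setting, menin and KMT2A are best known for keeping HOX genes and Meis1 active in leukaemia and during development. The urothelium is the lining of the bladder, with basal cells that express Krt5, Krt14 and Trp63 below intermediate cells and an outer layer of umbrella cells that carry uroplakins.

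The libraries held 58113705 to 68571176 counts. Values below are CPM, counts per 1e6 counts after TMM scaling, given for replicate 1 and then replicate 2. They are not corrected for gene length, so they compare 1 gene between libraries. Replicates differed by 0.345 to 0.39 (root mean square log2 difference over genes), and the WT DMSO and WT MI-503 groups by 1.13. The markers of the labelled cell type were present. Of 10 basal markers 9 were tested, and they summed to 12350 and 11290 CPM in WT DMSO and 15370 and 14520 CPM in WT MI-503, while Shh had no counts in any WT library. Umbrella and luminal markers summed to 1654 and 1544 CPM against 1425 and 1418 CPM, with Upk2 left untested for low counts. Most of that sum was the keratin Krt18, at 1054 and 980 CPM in DMSO and 770 and 762.5 CPM with MI-503. Of the uroplakins, Upk1b had 138 and 139 CPM in DMSO and Upk2 only 0.1302 and 0.149 CPM. Of the 8 fibroblast markers, 4 (Col1a2, Dcn, Lum and Thy1) were at 0 in every WT library and the sum stayed between 1.33 and 1.57 CPM. A wider list of 10 also holds Fbln1, which rose (3.83 and 2.41 to 48.4 and 45.4 CPM). Endothelial markers summed to 0.215 to 0.468 CPM. The smooth muscle sum went from 3.24 and 4.25 to 42.8 and 40.3 CPM, nearly all of it Acta2 (2.77 and 3.64 against 41.98 and 39.6 CPM). The immune sum went from 18.7 and 16.5 to 160.6 and 166.3 CPM, nearly all of it Cd68. Itgam had 3 and 1 counts in DMSO and 14 and 6 with MI-503, and Csf1r 1 and 0 against 6 and 3. The leukocyte marker Ptprc had 0 and 0 against 2 and 0 counts, and Adgre1 had none. Cd14, a myeloid receptor in a wider list of 10 immune genes, rose from 9.88 and 8.91 to 46.5 and 44 CPM (log2 fold change 2.27, adjusted p = 8.63e-12). What part other cell types have in the results was not tested. Squamous markers summed to 728 and 701 CPM in DMSO and 564 and 577 CPM with MI-503, and neural markers to 22.5 and 24.5 against 14.9 and 14.1 CPM.

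The WT DMSO libraries, which are the only controls of this comparison, stood apart from the other 6 libraries. The 26 tested ER chaperone genes took 3.81% and 4.08% of their counts, against 0.513% to 0.66% in the rest. Cytosolic and mitochondrial heat-shock genes took 3.17% and 3.4%, against 1.37% to 1.92%, and 30 p53 targets 0.692% and 0.732%, against 0.403% to 0.443%. Results on these genes therefore rest on both WT DMSO libraries, and they cannot be given without them. Leaving out either one ended no call named below for these groups except those of Vcp, lost without WT DMSO replicate 1, and Sil1, lost without WT DMSO replicate 2. Some lists that rose were lowest in both WT DMSO libraries, and their results carry the same limit. NRF2 targets and antioxidant enzymes took 0.509% and 0.5002% of counts there, against 0.676% to 1.22% in the rest. Glutathione S-transferases took 0.346% and 0.344%, against 0.498% to 0.771%, and cholesterol genes 0.1386% and 0.1375%, against 0.217% to 0.391%. Genes of basal cells and hemidesmosomes took 1.568% and 1.455%, against 2.19% to 3.793%, and ribosomal protein genes 5.422% and 5.218%, against 5.996% to 6.945%. Respiratory chain genes took 0.5052% and 0.4922%, against 0.6515% to 0.8122%. Fatty acid and triglyceride genes took 0.2218% and 0.2108%, against 0.2403% to 0.6731%, and glycolysis and hypoxia genes 0.7698% and 0.7192%, against 0.9023% to 1.222%. Lysosome genes were lowest in dKO DMSO instead. What set these libraries apart was not tested.

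A gene is called risen or fallen where its adjusted p was under 0.05 in edgeR's quasi-likelihood F test. By that rule 69% of the genes tested were called: 5961 as risen (35.2%) and 5708 as fallen (33.7%). A change of at least 2-fold was found upward in 2773 genes (16.4%) and downward in 2025 (12%). The WT MI-503 libraries lay wholly above or wholly below the WT DMSO libraries in 14118 genes (83.4%), which included 11664 of the 11669 called genes. With calls this common, a list of genes is read against these shares and against the median log2 fold change of all genes, 0.03, with no test of the list. In the interferon, collagen, autophagy, KMT2C/KMT2D and SET1, NF-kB and MHC class I lists the share called was below 69%. The shares that moved by at least 2-fold varied with the level of the gene. Among genes with a mean under 1 CPM in WT 20.7% rose and 13.4% fell. Among those with 1 to 10 CPM 25.6% rose and 9.9% fell, and among those with 10 to 100 CPM 12.4% rose and 9.9% fell. Among those with 100 to 1000 CPM 6.7% rose and 17.5% fell, and above that 8.1% rose and 15.3% fell. In summed CPM the risen genes gained 182448 and the fallen genes fell by 310472. In bulk samples such as these, fewer cells of a type and less RNA per cell cannot be told apart.

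**Figure D1:**
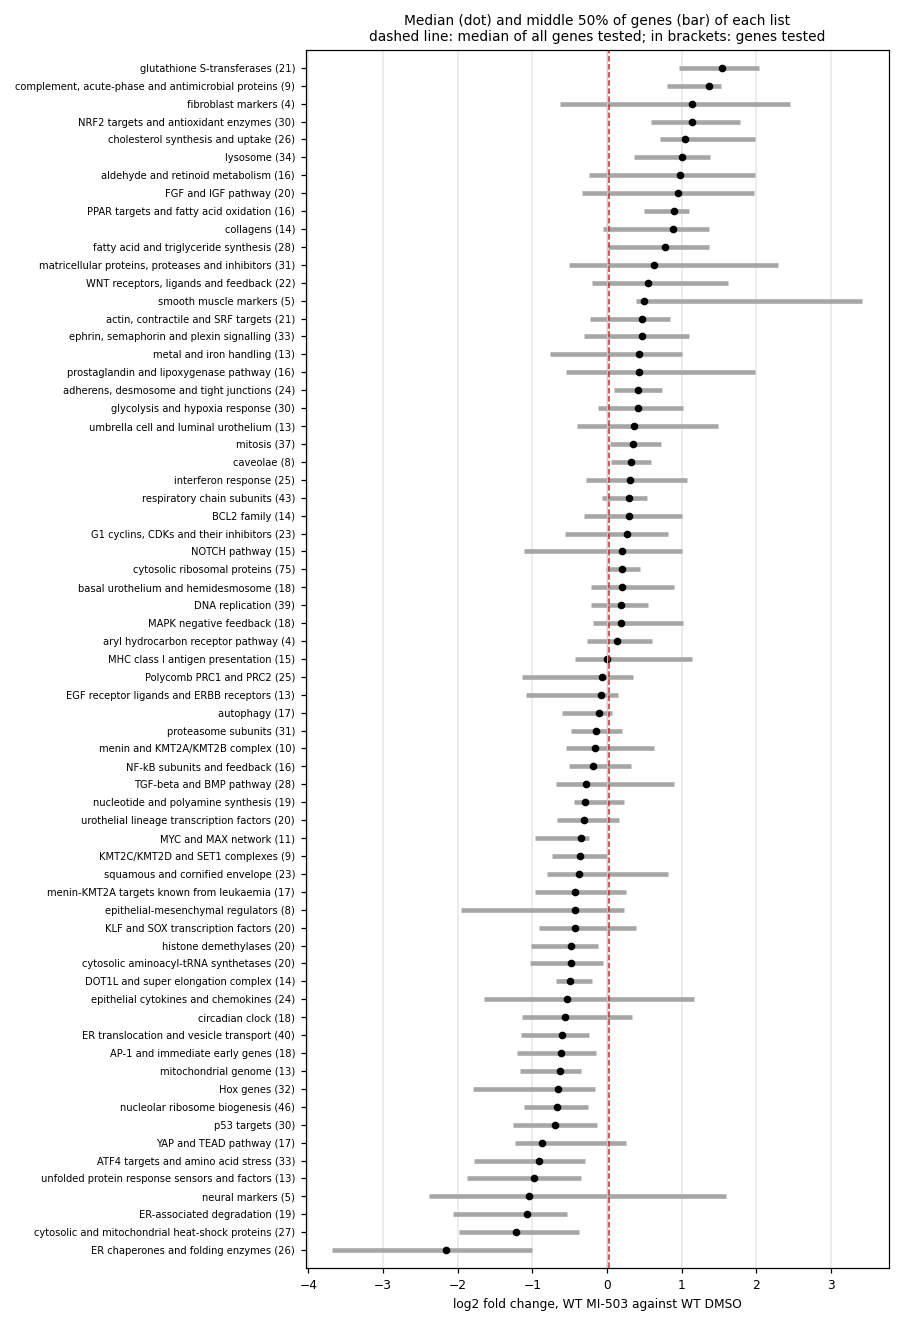
Median log2 fold change of MI-503 against DMSO in WT (dot, horizontal axis) and the middle 50% of the genes (bar) for the 67 gene lists with at least 3 tested genes. The dashed line is the median of all genes. The 26 ER chaperones lie lowest, at a median of -2.16, and the 21 glutathione S-transferases highest, at 1.55.

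Protein folding in the endoplasmic reticulum (ER) held 5 of the 10 largest falls among genes with a mean of at least 50 CPM in WT, those of Derl3, Hspa5, Creld2, Manf and Pdia4. Of 26 ER chaperones and folding enzymes, 23 fell and 3 rose, 19 and 0 of them by at least 2-fold, with a median log2 fold change of -2.16. Hspa5 encodes the main HSP70 chaperone of the ER lumen, also called BiP. It measured 14102 and 15236 CPM in the WT DMSO libraries and 342 and 342 CPM in the WT MI-503 libraries (log2 fold change -5.42, SE 0.0622, adjusted p = 2.91e-15). The groups were far apart, and the dKO DMSO libraries lay between them at 1511 and 1457 CPM. Hsp90b1, the ER's HSP90 chaperone, fell from 8610.2 and 9519 to 611 and 624 CPM (log2 fold change -3.88, SE 0.0674, adjusted p = 3.1e-14). The groups did not overlap, and the dKO DMSO libraries had 695 and 632 CPM. Pdia4, a protein disulfide isomerase, fell from 2587 and 2708 to 180.2 and 178 CPM (log2 fold change -3.89, SE 0.0589, adjusted p = 1.24e-14). Creld2 and Manf encode secreted folding factors. Creld2 had 741 and 765 CPM in DMSO and 23.9 and 21.6 CPM with MI-503 (log2 fold change -5.05, adjusted p = 2.91e-15). Manf had 1136 and 1232 against 49.4 and 49.9 CPM (log2 fold change -4.58, adjusted p = 3.84e-15). Both genes were high in the same 2 libraries and low in the MI-503 libraries with no overlap.

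Other members of the group fell too. The lectin chaperones that hold glycoproteins during folding, Calr and Canx, fell with log2 fold changes of -2.74 and -1.40, and with them the disulfide isomerases Pdia3 (-2.48) and Pdia6 (-2.31). The co-chaperones Dnajc3 (-3.58), Sdf2l1 (-3.73), Hyou1 (-3.71), Dnajb9 (-2.89) and Dnajb11 (-2.48) fell on the same scale, as did the oxidase genes Ero1l (-1.74) and Ero1lb (-2.02). The 3 genes that rose, Sil1, Txndc5 and Selenof, had log2 fold changes of 0.23, 0.31 and 0.47. In the labelled dKO organoids the same list had a median MI-503 effect of -0.03. Its median in dKO against WT, both in DMSO, was -2.01, and because that comparison uses the same WT DMSO libraries the values only stand side by side.

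Many of these genes are known to be switched on through the ER stress response element (ERSE), a promoter sequence to which the stress sensor ATF6 binds beside the CCAAT-binding factor NF-Y. The element was searched as CCAAT and CCACG with 9 bases of any kind between them, on both strands, in the RefSeq promoters of GRCm38.p6 from 250 bases before to 50 bases after each gene's start. It was found in 39 of 32851 promoters in the table (0.119%) and in 18 of the 10885 tested genes that have one (0.17%). Among the ER chaperones 7 of 21 held it (33.3%), and among genes of ER-associated degradation 2 of 15 (13.3%). The CCAAT part is also counted in the CCAAT box below, since the motifs overlap. The 6 promoters shown are of fallen genes whose element lies before the start, picked as examples after their values were seen. Calr, Canx and Syvn1, which also fell, held it before the start as well, and Hsp90b1 held a second copy. Capitals mark the element, read 5′ to 3′ on the strand of the gene. An element on the other strand reads CGTGG first and ATTGG last.
Hspa5, chr2:34771985-34772083, plus strand: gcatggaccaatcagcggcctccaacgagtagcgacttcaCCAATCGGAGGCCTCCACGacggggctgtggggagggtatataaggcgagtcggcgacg
Hsp90b1, chr10:86705493-86705591, minus strand: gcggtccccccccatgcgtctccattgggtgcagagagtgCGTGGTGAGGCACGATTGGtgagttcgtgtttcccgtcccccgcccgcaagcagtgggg
Dnajc3, chr14:118937787-118937885, plus strand: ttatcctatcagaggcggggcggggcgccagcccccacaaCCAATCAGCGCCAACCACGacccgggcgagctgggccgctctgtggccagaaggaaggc
Pdia6, chr12:17266451-17266549, plus strand: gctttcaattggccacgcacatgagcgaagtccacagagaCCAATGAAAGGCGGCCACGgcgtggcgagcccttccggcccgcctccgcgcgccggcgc
Creld2, chr15:88819480-88819578, plus strand: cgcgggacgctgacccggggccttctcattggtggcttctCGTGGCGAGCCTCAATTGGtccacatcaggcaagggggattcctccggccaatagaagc
Derl3, chr10:75893202-75893300, plus strand: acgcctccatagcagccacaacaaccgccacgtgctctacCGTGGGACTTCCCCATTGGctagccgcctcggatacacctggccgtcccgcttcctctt

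Of the 18 tested genes with an ERSE in this window, 14 fell, 3 rose and Pan2 did not pass, and 12 fell by at least 2-fold. Pan2 was called as risen with library size only, with RLE size factors, with no filter and with the stricter filter. Their median log2 fold change in WT was -2.04, beside 0.03 for all genes, and with MI-503 in the labelled dKO organoids it was 0.03. The element stood in 12 of 1279 promoters of genes fallen at least 2-fold (0.94%) and in 2 of 1872 of genes risen at least 2-fold (0.11%). Of the 18 genes 8 were in no fixed list. Among those was Alg12, a mannosyltransferase that builds the sugar chain attached in the ER, which fell from 35.97 and 35.04 to 13.04 and 12.5 CPM (log2 fold change -1.47, adjusted p = 1.64e-10). Another was Zfp57, a zinc finger protein known for keeping imprints, which fell from 34.95 and 37.9 to 8.95 and 9.19 CPM (log2 fold change -2.01, adjusted p = 1.24e-10). Besides Pan2 and Calr4, the other unlisted genes were Hnrnpa3 (-0.31), Spats2l (-0.91) and Gm6566 (-2.08), which fell, and Adcy3 (0.51), which rose, in log2 fold change. Spats2l and Gm6566 were low, with means of 0.426 and 0.238 CPM in WT DMSO. Gm6566 is 1 of the 12 falls of at least 2-fold. The 2 genes with the element that rose at least 2-fold were Acacb and Calr4, both below 1 CPM in DMSO (0.1302 and 0.215 CPM for Acacb, 0.537 and 0.446 CPM for Calr4).

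Genes that take misfolded proteins out of the ER for degradation fell as well. Of 19, 17 fell and 2 rose, 10 and 0 by at least 2-fold, and the median log2 fold change was -1.08. Derl3, a channel component of this route, had the largest fall among genes with a mean of at least 50 CPM and a proper symbol. It measured 212 and 218 CPM in DMSO and 0.5996 and 0.551 CPM with MI-503 (log2 fold change -8.54, SE 0.105, adjusted p = 2.91e-15). It went from well expressed to below 1 CPM, and it had 0.819 and 0.547 CPM in dKO DMSO. Sel1l and Syvn1 encode the membrane ubiquitin ligase complex. Sel1l fell from 914 and 968 to 128 and 135 CPM (log2 fold change -2.84, adjusted p = 5.2e-14). Syvn1 fell from 128 and 114 to 17.5 and 16.6 CPM (log2 fold change -2.83, adjusted p = 6.91e-12). Herpud1 (-2.76), Selenos (-2.69), Derl1 (-1.45) and the mannosidase-like Edem1 (-1.27) also fell, in log2 fold change. Vcp, the ATPase that pulls proteins from the membrane, rose slightly (log2 fold change 0.11, adjusted p = 0.0372), a call lost in 7 of the alternatives.

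Entry into the ER and traffic to the Golgi followed the same direction by smaller steps. Of 40 genes of translocation and vesicle transport 33 fell, 3 rose and 4 did not pass, with a median of -0.60 and 13 falls of at least 2-fold. The signal peptidase subunit Spcs2 fell from 330.5 and 342 to 85.2 and 91.6 CPM and Sec63, a translocon partner, from 385 and 398 to 107 and 109 CPM. The COPII coat gene Sec24d (-1.17) and the retrieval receptors Kdelr2 (-1.22) and Kdelr3 (-1.55) fell, whereas Kdelr1 (0.64), the translocon-associated Ssr4 (0.98) and Arfgap3 (0.95) rose, in log2 fold change.

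**Figure D2:**
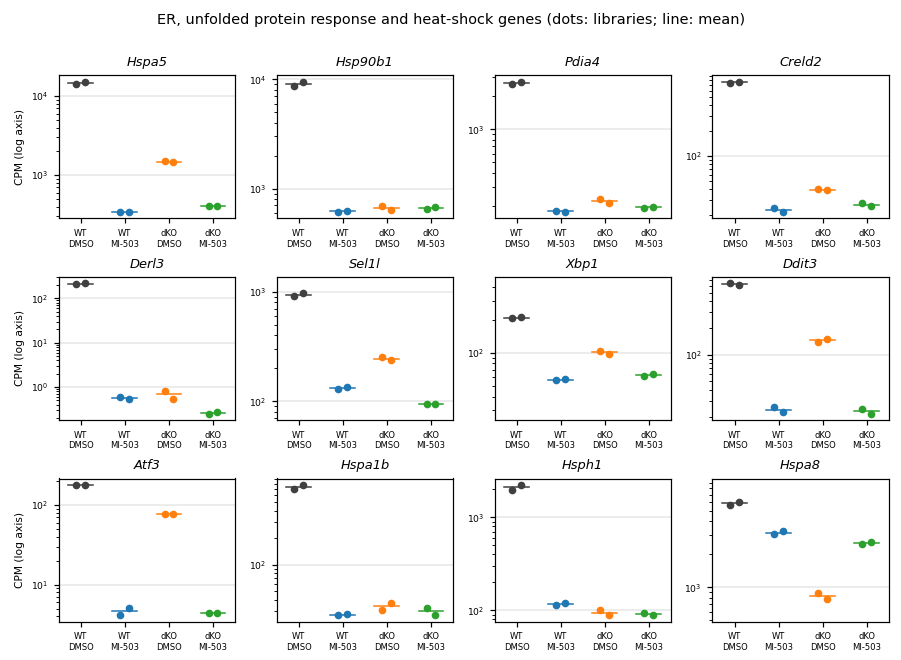
TMM-scaled CPM (log axis) of 12 genes of the ER, the unfolded protein response and the heat-shock response in all 8 libraries, with a line at each group's mean. Both WT DMSO libraries lie above the other 6 libraries in every panel.

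The sensors and transcription factors of the unfolded protein response fell in 11 of 13 cases and rose in 1, with a median log2 fold change of -0.98. Atf6, a sensor that becomes a transcription factor, fell from 486 and 495 to 115 and 117 CPM (log2 fold change -2.08, adjusted p = 2.97e-13). Xbp1, whose RNA the sensor IRE1 splices, fell from 208 and 212 to 56.7 and 57.5 CPM (log2 fold change -1.88, adjusted p = 1.21e-12). Ern1, which encodes IRE1, and Eif2ak3, which encodes the sensor PERK, fell with log2 fold changes of -1.16 and -0.34. Ddit3, the stress factor CHOP, fell from 637 and 606 to 25.6 and 22.4 CPM (log2 fold change -4.69, SE 0.07602, adjusted p = 1.73e-14). Ppp1r15a, the stress-induced phosphatase subunit GADD34, fell from 489 and 475 to 15.1 and 14.1 CPM (log2 fold change -5.04, SE 0.07204, adjusted p = 9.63e-15). In dKO both genes were higher in DMSO than with MI-503 as well. Ddit3 had 140.5 and 151 against 24.1 and 21.6 CPM there, and Ppp1r15a 269 and 289 against 15.2 and 13.2 CPM. Atf6b, a relative of Atf6, was the gene that rose (log2 fold change 0.74).

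ATF4, made when translation slows under stress, drives genes of amino acid uptake and synthesis, and its own RNA fell from 561 and 579 to 289.9 and 287 CPM (log2 fold change -0.98, adjusted p = 1.2e-10). Of 33 ATF4 target and amino acid stress genes 26 fell, 4 rose and 3 did not pass, 15 and 1 by at least 2-fold, with a median of -0.92 in WT and -1.17 with MI-503 in dKO. Atf3, a stress factor of the AP-1 kind, fell from 178 and 178 to 4.12 and 5.08 CPM (log2 fold change -5.28, SE 0.0788, adjusted p = 1.23e-14). The transporter genes Slc7a5 (-2.10), Slc7a1 (-1.50) and Slc38a2 (-1.72) fell in log2 fold change, and so did the kinase-like Trib3 (-2.32), the hormone Fgf21 (-3.05) and the stress regulator Nupr1 (-1.79). The list did not move as a whole. Asns, asparagine synthetase, fell from 1019 and 1030.0 to 514 and 542 CPM, while the serine metabolism genes Phgdh (0.74) and Shmt2 (0.65) rose. Of 20 cytosolic aminoacyl-tRNA synthetases, which load amino acids onto tRNA, 13 fell and 4 rose, with Wars lowest (-1.75) and Qars highest (1.52) in log2 fold change.

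The ATF4 response element, TGATGNAA on either strand, stood in 2.85% of the promoters of tested genes, in 10 of 29 promoters of the ATF4 list (34.5%) and in 5 of 12 of the tRNA synthetase list (41.7%). It is shown here in 3 promoters of fallen genes, picked as examples after their values were seen, with the element in capitals; on the other strand it reads TTNCATCA.
Asns, chr6:7693210-7693272, minus strand: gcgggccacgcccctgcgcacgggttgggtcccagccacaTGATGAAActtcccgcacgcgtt
Atf3, chr1:191183396-191183483, minus strand: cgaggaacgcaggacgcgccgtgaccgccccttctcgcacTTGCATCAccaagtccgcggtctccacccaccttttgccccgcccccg
Chac1, chr2:119351009-119351096, plus strand: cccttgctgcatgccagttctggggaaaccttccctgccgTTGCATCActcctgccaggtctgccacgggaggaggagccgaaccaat

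Heat-shock proteins of the cytosol and the mitochondria fell in 23 of 27 cases and rose in 2, with 15 falls of at least 2-fold and a median of -1.22. Hspa1b, the stress-inducible HSP70, had 706 and 780.1 CPM in DMSO and 27.1 and 27.6 CPM with MI-503 (log2 fold change -4.76, SE 0.101, adjusted p = 1.83e-13). It and Hspa1a are near-identical copies, so the split of reads between them is uncertain. Hsph1, an HSP110 that recycles HSP70, fell from 1966 and 2231 to 116 and 122 CPM (log2 fold change -4.14, SE 0.0756, adjusted p = 4.69e-14). The cytosolic chaperones Hsp90aa1 (5942 and 6582 to 2026 and 2132 CPM, log2 fold change -1.59, adjusted p = 2.81e-11) and Hspa8 (5618 and 6035 to 3037 and 3278 CPM, log2 fold change -0.88, adjusted p = 2.7e-08) fell by less. Of the mitochondrial ones, Hspd1 (-2.000), Hspe1 (-1.50) and Hspa9 (-1.43) fell in log2 fold change. The chaperonin subunits were mixed, with falls of Cct3 (-0.87) and Cct8 (-0.39) and rises of Cct2 (0.28) and Cct4 (0.42). In dKO the heat-shock list had a median MI-503 effect of 0.01. Hspa8 rose there, from 894 and 790.2 CPM in DMSO to 2472 and 2579 CPM with MI-503 (log2 fold change 1.58, adjusted p = 3.25e-10).

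Proteasome subunits did not move together: 11 of 31 rose, 16 fell and 4 did not pass, and the median of -0.14 turned positive, 0.03, when libraries were scaled by library size only. Psmc2, an ATPase of the cap, fell most (533 and 558 to 138 and 134 CPM) and Psma7 of the core rose most (105 and 97.9 to 157 and 154 CPM). Of 17 autophagy genes 8 fell and 3 rose, and their median of -0.11 turned to 0.062 with library size only. The cargo receptors Sqstm1 (849 and 852 to 312 and 302 CPM) and Tax1bp1 (568 and 615 to 205 and 212 CPM) fell and Atg7 rose (1.07).

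Genes of ribosome making in the nucleolus mostly fell, and genes of the ribosome itself more often rose. Of 46 nucleolar genes 36 fell and 4 rose, 13 and 0 by at least 2-fold, with a median of -0.67. Of 75 ribosomal protein genes 41 rose, 11 fell and 23 did not pass, with a median of 0.20. Nop58, a core protein of the particles that guide RNA methylation, fell from 475 and 482 to 102 and 109.7 CPM (log2 fold change -2.17, adjusted p = 5.35e-13). Wdr43, of the small-subunit processome, fell from 474 and 474 to 116 and 113 CPM (log2 fold change -2.05, adjusted p = 2.22e-13). Ncl, nucleolin, fell (log2 fold change -0.88), and Npm1, the other abundant nucleolar protein, was among the genes that moved least (1693 and 1814 against 1748 and 1819 CPM, 95% interval of the log2 fold change -0.10 to 0.15). Of the ribosomal proteins Rpl8 (1.34) and Rpl13a (1.18) rose most and Rpl5 (-0.48) fell most in log2 fold change, and processed copies of these genes make their counts uncertain. Myc, which drives ribosome making, fell from 484 and 443 to 178 and 166 CPM (log2 fold change -1.43, SE 0.0827, adjusted p = 2.05e-09), as did its partner Max (-1.41). Of 11 genes of this network 9 fell and 2, Mlx (0.60) and Mxd3 (1.18), rose. Of 19 genes of nucleotide and polyamine synthesis 11 fell and 6 rose; Odc1 and Srm, which make polyamines, had log2 fold changes of -1.17 and -1.003, and Impdh2, which makes guanine nucleotides, 1.44.

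Of 43 nuclear genes for respiratory chain subunits 23 rose, 9 fell and 11 did not pass, with a median of 0.30. Risers were led by Cyc1 (73.3 and 63.03 to 162 and 156 CPM) and Ndufb8 (24.2 and 21.1 to 53.02 and 48.9 CPM). Cycs, cytochrome c, fell most (-1.001). Of 13 protein genes of the mitochondrial genome 10 fell and 1 rose, with a median of -0.63. mt-Cytb fell from 6849 and 7453 to 1816 and 1749 CPM (log2 fold change -2.005, SE 0.0675, adjusted p = 1.02e-11) and mt-Nd1 from 4714 and 5198 to 2367 and 2442 CPM (log2 fold change -1.04, adjusted p = 4.34e-09). mt-Co1 did not pass, at 15416 and 16639 against 15869 and 15792 CPM. These transcripts are cut from shared precursors, and how polyA selection and counting treated each was not tested.

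The cell cycle gave no single direction. Of 39 DNA replication genes 20 rose and 11 fell (median 0.19), and of 37 mitosis genes 24 rose and 7 fell (median 0.34). Tk1, thymidine kinase, rose from 20.8 and 17.7 to 68.7 and 62.6 CPM (log2 fold change 1.77, adjusted p = 1.62e-10). Lig1, the replication ligase, rose from 26.5 and 25.8 to 72.96 and 72.5 CPM (log2 fold change 1.48, adjusted p = 1.94e-11). Aurkb, a mitotic kinase (1.54), Ccnb2 (1.46) and Foxm1, a driver of mitotic genes (1.30), rose in log2 fold change, while Cenpe (-1.28), Hmmr (-0.95) and Cdc6 (-1.24) fell. The proliferation marker Mki67 measured 222 and 218 CPM in DMSO and 229 and 237 CPM with MI-503 and did not pass, though it did as a rise in 3 of the alternatives. Top2a, a topoisomerase of dividing cells, rose from 278 and 276 to 454 and 458 CPM (log2 fold change 0.72, adjusted p = 4.76e-09). E2f8, a repressor of the E2F family, had one of the 10 largest rises above 50 CPM, from 17.3 and 16.7 to 163 and 162 CPM (log2 fold change 3.25, SE 0.0523, adjusted p = 1.66e-14). Of 23 G1 cyclins, their kinases and inhibitors 12 rose and 8 fell, and the D cyclin genes Ccnd1 (0.63), Ccnd2 (0.85) and Ccnd3 (1.20) all rose in log2 fold change.

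Menin is known to hold the CDK inhibitors Cdkn1b and Cdkn2c active in endocrine cells. In these organoids Cdkn1b fell from 60.4 and 63.8 to 37.3 and 35.8 CPM (log2 fold change -0.76, SE 0.0547, adjusted p = 1.92e-08). Cdkn2c, at 3.58 and 3.08 CPM in DMSO and 4.29 and 3.49 CPM with MI-503, did not pass, though it did as a rise in 4 of the alternatives. Cdkn2a rose from 11.6 and 9.06 to 19.5 and 16.1 CPM (log2 fold change 0.78, adjusted p = 0.00126). Cdkn1a, the p53 target p21, fell from 769 and 814 to 304 and 319 CPM (log2 fold change -1.34, SE 0.0476, adjusted p = 1.62e-11), with 256 and 262 CPM in dKO DMSO. Of 30 p53 targets 22 fell and 6 rose, 10 and 0 by at least 2-fold, with a median of -0.70 in WT and 0.34 with MI-503 in dKO. This list, too, took more of the counts in both WT DMSO libraries than in the other 6. Trp53inp1 (807 and 902 to 146 and 153 CPM), Plk2 (1736 and 1788 to 532 and 547 CPM) and the death gene Pmaip1 (243 and 270.0 to 61.6 and 62.6 CPM) fell most among the better expressed ones. The 6 risers included the DNA repair genes Xpc (0.75) and Ddb2 (0.56) in log2 fold change. In the BCL2 family 8 of 14 rose and 5 fell: the survival gene Bcl2l1 rose from 137 and 132 to 268 and 258 CPM and its opponent Bak1 from 55.9 and 51.5 to 111 and 107 CPM.

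Of 10 genes of the menin, KMT2A and KMT2B complex 5 fell and 4 rose, 1 of them by at least 2-fold, and the median of -0.16 turned to 0.019 with library size only. That gene was Men1, which rose from 16.98 and 14.5 to 34.1 and 32.4 CPM (log2 fold change 1.08, SE 0.0867, adjusted p = 6.67e-08). Kmt2a fell from 133 and 131 to 89.2 and 84.5 CPM (log2 fold change -0.60, adjusted p = 7.15e-08). Kmt2b, at 80.5 and 71.4 CPM in DMSO and 73.1 and 70.5 CPM with MI-503, did not pass. Of 9 tested genes of the KMT2C/KMT2D and SET1 complexes 5 fell and 1 rose. Kmt2c fell from 110.2 and 111 to 60.3 and 61.6 CPM (log2 fold change -0.86, adjusted p = 1.21e-08). The demethylase Kdm6a fell from 116 and 129 to 55.9 and 59.1 CPM (log2 fold change -1.09, adjusted p = 4.86e-09). Of 20 histone demethylases 14 fell and 4 rose, and of 14 genes of DOT1L and the super elongation complex, KMT2A fusion partners among them, 11 fell and 1 rose, with medians of -0.48 and -0.50. Polycomb genes, which oppose these activators, split into 12 falls and 8 rises. Bmi1 (110.2 and 114 to 30.7 and 31.6 CPM) and Suz12 (267 and 278 to 122 and 123 CPM) fell. Cbx7 (1.48) and Phf19 (2.04) rose in log2 fold change. Their median of -0.06 turned positive with library size only (0.11), with no filter (0.009) and with the stricter filter (0.012).

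HOX genes, the best known genes that depend on menin and KMT2A, fell more often than they rose. Of 39 listed 32 were tested, of which 21 fell, 3 rose and 8 did not pass, with a median of -0.65. By at least 2-fold 10 fell and 1 rose. Hoxa11 fell from 49.1 and 46.6 to 15.6 and 15.7 CPM (log2 fold change -1.61, SE 0.0604, adjusted p = 2.67e-11). Hoxb9 fell from 9.08 and 9.66 to 1.21 and 1.04 CPM (log2 fold change -3.05, adjusted p = 2.69e-10). In both genes the MI-503 libraries lay below both DMSO libraries. Hoxa9, a target in leukaemia, fell from 63.2 and 64.4 to 43.6 and 42.2 CPM (log2 fold change -0.57, adjusted p = 1.36e-07), and Hoxa10 had a log2 fold change of -0.42. Hoxa3 and Hoxb4 rose, by 0.64 and 0.40 in log2 fold change. The gene that rose by at least 2-fold was another, with a mean below 5 CPM in WT. Hoxc8 and Hoxc9 had 49 and 22 counts over both DMSO libraries and 0 with MI-503. That is at least 17.2-fold and 7.71-fold lower when 0 is replaced by a floor of 3 counts per group. Meis1, the HOX partner of leukaemia, fell from 33.9 and 35.8 to 11.7 and 12.02 CPM (log2 fold change -1.55, SE 0.0712, adjusted p = 1.93e-10). Of 17 tested leukaemia targets 9 fell and 4 rose (median -0.42): besides HOX genes and Meis1, Pbx3 (-0.96), Jmjd1c (-1.12) and Cdk6 (-0.48) fell in log2 fold change, and Mecom (0.53), Bcl2 (0.41) and Ikzf2 (0.72) rose.

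The factors that hold urothelial identity fell more often than they rose, with 12 falls and 4 rises of 20 (median -0.31). Trp63, the master regulator of basal cells, fell from 462 and 451 to 236 and 234 CPM (log2 fold change -0.96, SE 0.0434, adjusted p = 1.75e-10). Gata3, which keeps urothelial fate, fell from 35.3 and 35.5 to 19.2 and 18.8 CPM (log2 fold change -0.90, adjusted p = 9.33e-09). Klf5, a factor of epithelial renewal, fell from 222 and 231 to 134 and 133 CPM (log2 fold change -0.76, adjusted p = 2.12e-09). Foxa1 (33.7 and 33.6 to 55.6 and 56.05 CPM, log2 fold change 0.73, adjusted p = 2.01e-08) and Elf3 (90.2 and 82.1 to 148 and 147 CPM, log2 fold change 0.78, adjusted p = 1.87e-08), known with luminal cells, rose. Pparg, the nuclear receptor of luminal differentiation, had 20.8 and 20.7 CPM in DMSO and 19.9 and 21.1 CPM with MI-503 and did not pass.

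Structural genes of the layers did not follow 1 direction. Of 18 basal and hemidesmosome genes 9 rose and 5 fell. Krt5, the basal keratin, rose from 4130.4 and 3817 to 7674 and 7266 CPM (log2 fold change 0.91, SE 0.0714, adjusted p = 5.06e-08). In dKO DMSO it had 9063 and 10095 CPM, so the WT DMSO libraries were the lowest. The hemidesmosome integrin Itgb4 rose from 684 and 576 to 1332 and 1219 CPM (log2 fold change 1.02, adjusted p = 3.98e-07). Krt14, the usual partner of Krt5, fell from 2081 and 1786 to 1545 and 1371 CPM (log2 fold change -0.41, adjusted p = 0.00189, a call lost with library size only). Krt15 fell from 1799 and 1762 to 1242 and 1237 CPM (log2 fold change -0.52, adjusted p = 2.15e-07). Ngfr, a surface receptor of basal cells, rose from 10.2 and 9.44 to 58.9 and 58.4 CPM (log2 fold change 2.58, adjusted p = 1.71e-12). Of the umbrella and luminal genes 6 of 13 rose and 5 fell. Krt7 rose from 1367 and 1255 to 5086 and 4892 CPM (log2 fold change 1.93, SE 0.0644, adjusted p = 9.52e-12), one of the 10 largest gains in CPM. The uroplakin-related Upk3bl rose from 175 and 148 to 475 and 431 CPM (log2 fold change 1.49, adjusted p = 1.29e-09). Among the uroplakins Upk1b fell from 138 and 139 to 97.5 and 106 CPM (log2 fold change -0.44, adjusted p = 4.56e-06). Upk3a rose from 0.293 and 0.165 to 1.75 and 1.91 CPM, a level near 1 CPM.

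**Figure D3:**
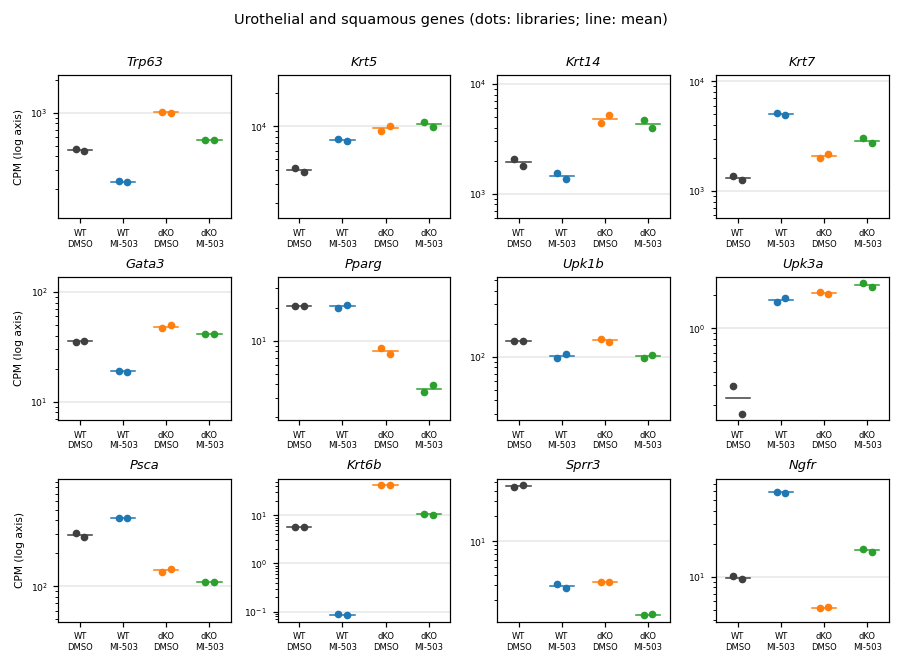
TMM-scaled CPM (log axis) of 12 urothelial and squamous genes in all 8 libraries, with a line at each group's mean. With MI-503 in WT, Krt5, Krt7, Upk3a, Psca and Ngfr are higher, and Trp63, Gata3, Krt14, Upk1b, Krt6b and Sprr3 lower. Pparg did not pass.

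Squamous and cornified genes, of which 6 of 29 listed were too low to test, held 11 falls and 8 rises. The falls included the stress keratin Krt6b (5.71 and 5.82 to 0.0877 and 0.0836 CPM) and the envelope protein Sprr3 (44.6 and 46.7 to 3.08 and 2.81 CPM, log2 fold change -3.95, adjusted p = 2.52e-13). Cnfn, cornifelin, fell from 7.99 and 8.65 to 0.0877 and 0.0167 CPM (log2 fold change -7.20, adjusted p = 5.39e-11). The rises included Sbsn (9.65 and 9.23 to 39.8 and 40.6 CPM) and the cross-linking enzyme Tgm1 (19.2 and 20.2 to 56.3 and 55.4 CPM). Dmkn, a secreted epidermal protein in no list, had the largest rise of any gene above 50 CPM, from 6.495 and 6.23 to 147 and 146 CPM (log2 fold change 4.52, SE 0.0784, adjusted p = 3.1e-14). Junction genes rose in 18 of 24 cases and fell in 5. The tight junction scaffold Cgn (25.5 and 23.3 to 58.9 and 57.2 CPM) and Cldn7 (83.7 and 74.2 to 172 and 161 CPM) rose. Ocln (69.2 and 65.01 to 31.9 and 32.1 CPM) and F11r (418 and 415 to 219.8 and 222 CPM) fell.

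Metabolic and protective enzymes made up the groups that rose most evenly. Of 30 NRF2 targets and antioxidant enzymes 26 rose and 4 fell, of which 16 and 1 by at least 2-fold, with a median of 1.13 in WT and 0.81 in dKO. NRF2, encoded by Nfe2l2, is the transcription factor of the antioxidant response, and its own RNA fell (552 and 588 to 459 and 466 CPM, log2 fold change -0.30, adjusted p = 8.23e-05). Nqo1, its classical quinone reductase target, rose from 21.4 and 18.8 to 214 and 225 CPM (log2 fold change 3.45, SE 0.0689, adjusted p = 1.09e-13). Gclm and Gclc encode the subunits of the enzyme that begins glutathione synthesis. Gclm rose from 49.8 and 51.9 to 272 and 291 CPM (log2 fold change 2.47, adjusted p = 1.21e-12), and Gclc from 142 and 149.9 to 526 and 556 CPM (log2 fold change 1.89, adjusted p = 3.83e-12). For Nqo1, Gclm and Gclc both MI-503 libraries lay above both DMSO libraries, and the groups lay apart in 83.4% of all genes tested. Gpx2 (2.66), Tkt of the pentose phosphate pathway (2.10), the ferritin chain Ftl1 (1.56) and Gsr (1.79) rose in log2 fold change. Hmox1, haem oxygenase, fell from 56.3 and 54.5 to 18.1 and 16.03 CPM (log2 fold change -1.70, adjusted p = 1.63e-10). The antioxidant response element TGACNNNGC stood in 10 of 26 promoters of the list (38.5%), against 16.95% of the promoters of tested genes. Its share was 17.25% among genes risen at least 2-fold and 15.48% among those fallen at least 2-fold. The MYC and MAX network, which mostly fell, held it in 6 of 10 promoters (60%).

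Glutathione S-transferases, which couple glutathione to reactive compounds, rose in 20 of 21 cases, 15 by at least 2-fold. The other 1 fell by at least 2-fold. The median was 1.55 in WT and 0.80 in dKO. Mgst1, a membrane-bound member, rose from 0.716 and 0.777 to 16.3 and 18.5 CPM (log2 fold change 4.54, SE 0.142, adjusted p = 5.59e-12). Gsta3 rose from 29.4 and 28.9 to 82.3 and 91.2 CPM and Gstm1 from 40.6 and 35.05 to 139 and 149 CPM. Many members are close paralogs in clusters, so the split of reads between them is uncertain. Of 16 genes of aldehyde and retinoid metabolism 10 rose and 3 fell. Aldh3a1, abundant in barrier epithelia, rose from 417 and 364 to 2400.2 and 2489.8 CPM (log2 fold change 2.65, SE 0.0613, adjusted p = 3.92e-13). Aldh1a1, which makes retinoic acid, rose from 0.912 and 0.645 to 8.13 and 8.54 CPM. The retinol uptake receptor Stra6 rose from 150.5 and 132 to 415 and 400.2 CPM (log2 fold change 1.53, adjusted p = 5.22e-11). Cyp26b1, which degrades retinoic acid, fell from 32.2 and 31.1 to 18.9 and 16.9 CPM (log2 fold change -0.82, adjusted p = 1.19e-07). Of 13 genes of metal and iron handling 7 rose and 6 fell; the metallothioneins Mt1 (1.01) and Mt2 (1.75) rose and the zinc exporter Slc30a1 fell (-2.06) in log2 fold change.

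Cholesterol synthesis rose along nearly the whole pathway. Of 26 genes 24 rose, 14 by at least 2-fold, 1 (Lss) fell and 1 (Ebp) did not pass, and the median was 1.05 in WT and 1.004 in dKO. Mvk, mevalonate kinase, rose from 2.07 and 1.89 to 18.4 and 17.6 CPM (log2 fold change 3.19, SE 0.127, adjusted p = 4.77e-11). Dhcr7, an enzyme of the final steps, rose from 12.97 and 13.1 to 74.7 and 76.9 CPM (log2 fold change 2.54, adjusted p = 2.58e-13). Hmgcs1 (0.21) and Sqle (0.25) rose least, in log2 fold change. The call on Lss (log2 fold change -0.16) was lost in 6 of the alternatives, and its value turned to 0.011 with library size only. The sterol element TCACNCCAC stood in 1 of 18 promoters of the list, against 1.46% of the promoters of tested genes. The plain CCAAT box stood in 17 of 18, against 42.8% of the same promoters. Its share was 41.99% among genes risen at least 2-fold and 43.71% among those fallen at least 2-fold. The ER chaperones, which mostly fell, held it in 18 of 21 promoters (85.7%).

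Fatty acid synthesis rose in 19 of 28 genes and fell in 6 (median 0.78). The desaturase gene Scd2 rose from 312 and 308 to 2689 and 2716 CPM (log2 fold change 3.12, SE 0.0509, adjusted p = 1.78e-14). Its relative Scd1 rose from 36.1 and 34.6 to 217 and 224 CPM (log2 fold change 2.64, adjusted p = 2e-13). Acss2, which makes acetyl-CoA from acetate, rose from 8.17 and 8.18 to 46.4 and 48.4 CPM and Lpin1, a phosphatase of triglyceride synthesis, from 9.82 and 10.2 to 61.4 and 60.95 CPM. The droplet coat Plin2 (188 and 176 to 76.95 and 75.8 CPM) and the last enzyme of triglyceride synthesis Dgat2 (8.09 and 7.33 to 3.32 and 3.33 CPM) fell. Of 16 PPAR targets and genes of fatty acid oxidation 12 rose and 3 fell. Risers included Acadm (19.99 and 20.1 to 40.3 and 39.8 CPM) and Cpt1a (8.06 and 8.09 to 14.4 and 13.6 CPM). The thioesterase Acot2 fell (26.1 and 25.5 to 2.84 and 2.36 CPM). Of 16 prostaglandin and lipoxygenase genes 9 rose and 3 fell. Alox15, a lipoxygenase, rose from 0.635 and 0.479 to 20.6 and 21.4 CPM (log2 fold change 5.23, SE 0.1503, adjusted p = 2.67e-12) and had 0.386 and 0.243 CPM in dKO MI-503. The prostaglandin synthase Ptgs2 fell from 603 and 633 to 100.3 and 99.02 CPM (log2 fold change -2.63, adjusted p = 4.69e-14).

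Lysosome genes rose in 27 of 34 cases and fell in 6, 17 and 0 by at least 2-fold (median 1.01). The glycosidases Hexa (8.82 and 9.66 to 33.4 and 35.3 CPM, log2 fold change 1.89, adjusted p = 1.84e-10) and Neu1 (13.7 and 11.6 to 49.2 and 46.4 CPM, log2 fold change 1.92, adjusted p = 7.13e-10) rose. The activator Psap rose from 189 and 174 to 551 and 543 CPM (log2 fold change 1.59, adjusted p = 7.08e-12). Of the regulators Tfeb rose (1.18) and Tfe3 fell (-0.91) in log2 fold change. Of the proton pump Atp6v1a fell (-0.70) and Atp6v0d1 rose (0.25). Gpnmb, a glycoprotein of endolysosomes, rose from 82.4 and 74.8 to 1157 and 1188 CPM (log2 fold change 3.90, SE 0.0595, adjusted p = 1.24e-14). Cd68, a lysosomal membrane protein used as a macrophage marker, rose from 18.6 and 16.4 to 160.3 and 166 CPM (log2 fold change 3.22, SE 0.0759, adjusted p = 4.65e-13). The E-box CACGTG stood in 10 of 26 promoters of the list (38.5%), against 11.5% of the promoters of tested genes. Its share was 10.31% among genes risen at least 2-fold and 12.35% among those fallen at least 2-fold. The MYC and MAX network, which mostly fell, held it in 4 of 10 promoters (40%).

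**Figure D4:**
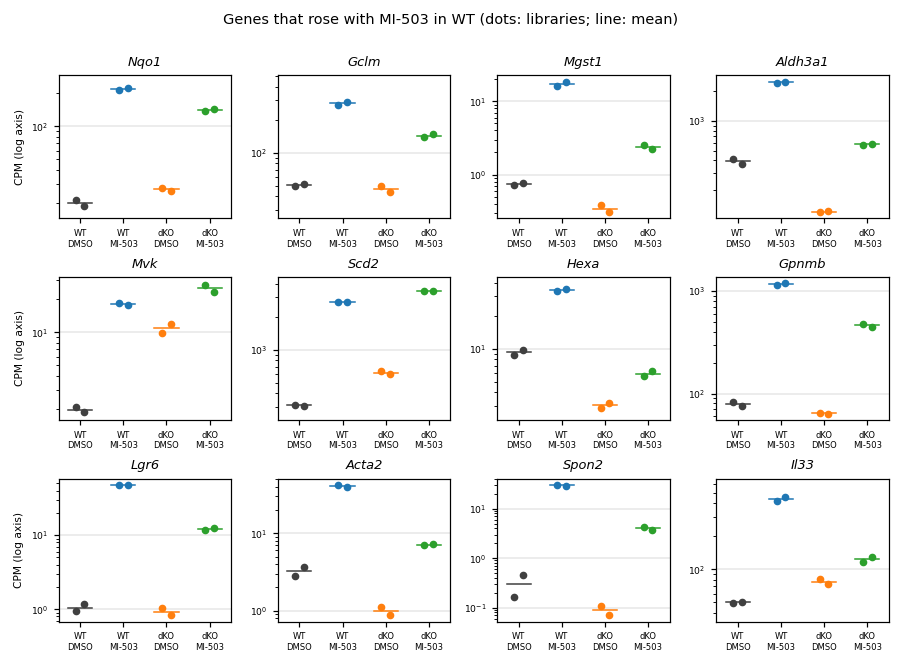
TMM-scaled CPM (log axis) of 12 genes that rose with MI-503 in WT, in all 8 libraries, with a line at each group's mean. The genes were picked as called risen. Both WT MI-503 libraries lie above both WT DMSO libraries in every panel, and the groups lay apart in 11664 of all 11669 called genes.

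Genes of glycolysis and the hypoxia response rose in 19 of 30 cases and fell in 7 (median 0.41). The enzymes Pfkm (10.7 and 9.09 to 58.7 and 59.3 CPM), Hk1 (76.2 and 70.8 to 334 and 314 CPM) and Gpi1 (259 and 238 to 768 and 747 CPM) rose. The hypoxia targets Ndrg1 (297 and 297 to 77.9 and 70.1 CPM) and Vegfa (347 and 338 to 223 and 212 CPM) fell.

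Of 13 EGF receptor ligands and receptors 6 fell and 3 rose, a share called that equals the 69% over all genes. Epgn, epigen, fell from 49.9 and 49.7 to 5.47 and 5.699 CPM (log2 fold change -3.16, adjusted p = 1.83e-13). Ereg, epiregulin, fell from 238 and 250.2 to 57.2 and 58.6 CPM (log2 fold change -2.08, adjusted p = 5.34e-13). Areg, amphiregulin, fell from 310.1 and 324 to 119 and 123 CPM (log2 fold change -1.39, adjusted p = 1.29e-11). The MI-503 libraries were the lower ones for each of these ligands, and Egfr itself fell from 242 and 249.7 to 140.3 and 142 CPM (log2 fold change -0.80, adjusted p = 1.76e-09), in a medium with EGF. Tgfa (0.65), Erbb2 (0.49) and Erbb3 (0.49) rose in log2 fold change. The list's median of -0.09 turned to 0.089 with library size only. Feedback genes of the MAPK pathway rose in 9 and fell in 4 of 18 cases, a share called near that over all genes. Etv4 (52.1 and 46.8 to 112 and 112 CPM) and Dusp4 (7.98 and 7.26 to 23.2 and 24.01 CPM) were higher. Of 18 AP-1 and immediate early genes 11 fell and 3 rose (median -0.62). Jun fell from 85.5 and 86.1 to 22.2 and 20.1 CPM (log2 fold change -2.02, adjusted p = 4.06e-10), and Fos from 16.96 and 15.2 to 5.85 and 5.75 CPM. Fosl2 fell from 362 and 358 to 149.7 and 147 CPM. Of 20 KLF and SOX factors 9 fell and 5 rose, with log2 fold changes of -2.27 and -2.05 for Klf6 and Klf11 and of 1.46 and 1.67 for Sox9 and Sox15.

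In the WNT group, in organoids that all received R-spondin, 13 of 22 genes rose, 9 by at least 2-fold, and 6 fell, none of them by that much (median 0.55). Lgr6, an R-spondin receptor of epithelial stem cells, rose from 0.944 and 1.16 to 47.3 and 47.5 CPM (log2 fold change 5.49, SE 0.1101, adjusted p = 1.09e-13). Its relative Lgr5 had 1 count in DMSO and 134 with MI-503, a ratio of 127.4 (95% counting interval 22.5 to 5069). The feedback gene Axin2 rose from 3.79 and 3.65 to 12.1 and 10.98 CPM (log2 fold change 1.63, adjusted p = 1.55e-09). The ligand Wnt10a rose from 36.1 and 34.3 to 92.2 and 89.1 CPM and the secreted inhibitor Sfrp1 from 0.635 and 0.661 to 10.5 and 11.6 CPM. In the NOTCH pathway 6 of 15 genes rose and 6 fell. The ligands Jag1 (408 and 411 to 121 and 117 CPM, log2 fold change -1.78, adjusted p = 6.41e-13) and Dll1 (86.1 and 87.3 to 38.5 and 36.3 CPM) fell. The receptors Notch1 (598 and 548 to 349.6 and 321 CPM) and Notch2 (82.5 and 77.2 to 42.1 and 36.4 CPM) fell too, and Notch3 (11.5 and 10.7 to 32.9 and 33.1 CPM) rose. Hes1, a NOTCH target, rose (0.42). Hey2, another, had 102 counts in DMSO and 0 with MI-503, at least 35.8-fold lower by the same floor.

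Of 28 TGF-beta and BMP genes 15 fell and 12 rose, and all 4 WT libraries came from medium with the receptor inhibitor A83-01. Tgfbi, a matrix protein that TGF-beta induces, rose from 30.9 and 27.98 to 248 and 251 CPM (log2 fold change 3.08, SE 0.06004, adjusted p = 8.38e-14). Id2, a BMP target, rose from 38.2 and 38.3 to 129 and 128 CPM (log2 fold change 1.75, adjusted p = 1.24e-12). The inhibitor Smad7 fell from 12.7 and 13.7 to 4.88 and 4.98 CPM (log2 fold change -1.42, adjusted p = 6.04e-09). YAP and TEAD genes split: 11 of 17 fell and 6 rose (median -0.88). The targets Ccn2 and Ccn1 went opposite ways. Ccn2 rose from 37.5 and 36.1 to 301 and 309 CPM (log2 fold change 3.05, adjusted p = 1.79e-14), and Ccn1 fell from 96.5 and 100.5 to 16.1 and 15.1 CPM (log2 fold change -2.66, SE 0.0593, adjusted p = 2.76e-13). The factor Tead1 fell from 552 and 576 to 169 and 169 CPM (log2 fold change -1.74, adjusted p = 1.73e-12). Among FGF and IGF genes 12 rose and 6 fell of 20. The binding proteins Igfbp3 (243 and 243 to 649 and 651 CPM) and Fgfbp1 (77.3 and 73.05 to 291 and 294 CPM) rose, and the receptor Igf1r fell (287 and 280.2 to 130.4 and 129 CPM).

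Matrix and contractile genes went both ways, with more rises than falls. Of 31 matricellular proteins and proteases 17 rose and 8 fell, of which 12 and 4 by at least 2-fold. Spon2 rose from 0.163 and 0.446 to 30.04 and 29.2 CPM (log2 fold change 6.60, SE 0.193, adjusted p = 2.96e-12). Fbln1, counted above among fibroblast markers, rose from 3.83 and 2.41 to 48.4 and 45.4 CPM (log2 fold change 3.91, adjusted p = 2.54e-11) and Fbln2 from 10.5 and 9.62 to 63.5 and 61.1 CPM. These are secreted matrix proteins. The protease Plau rose from 40.3 and 39.96 to 193 and 199 CPM (log2 fold change 2.29, adjusted p = 2.44e-13). The protease inhibitor Serpinb2 fell from 245 and 262 to 30.2 and 30.98 CPM (log2 fold change -3.05, adjusted p = 4.69e-14). Of 14 tested collagens 7 rose and 2 fell, and the basement membrane collagen Col4a1 rose from 37.9 and 32.6 to 96.95 and 89.4 CPM. Vim, the mesenchymal filament protein, rose from 0.488 and 0.496 to 27.8 and 24.5 CPM (log2 fold change 5.73, SE 0.156, adjusted p = 1.63e-12). Of 8 tested regulators of the epithelial-mesenchymal transition 4 fell and 2 rose. Snai2, a transition factor, fell from 132 and 138 to 49.4 and 50.5 CPM (log2 fold change -1.44, adjusted p = 1.07e-11). Zeb2, another, had 210 counts in DMSO and 3 with MI-503, a ratio of 73.6 (95% counting interval 24.9 to 359.9). Of 21 actin, contractile and SRF target genes 12 rose and 6 fell. Acta2, smooth muscle actin, rose from 2.77 and 3.64 to 41.98 and 39.6 CPM (log2 fold change 3.67, SE 0.114, adjusted p = 5.1e-12). Acta1, the skeletal muscle form, rose from 0.0326 and 0.116 to 19.02 and 15.9 CPM, with reads of such paralogs hard to tell apart. The actin regulator gene Srf fell (77.3 and 72.1 to 35.1 and 33.4 CPM, log2 fold change -1.13, adjusted p = 2.22e-08). The smooth muscle markers Cnn1, Tagln and Actg2 stayed at or under 0.149 CPM in all 4 WT libraries, and Col1a2, Dcn and Lum at 0. Of 8 caveola genes 5 rose and 2 fell, and Cavin2, a coat protein, rose from 0.212 and 0.215 to 29.9 and 28.9 CPM (log2 fold change 7.10, SE 0.1298, adjusted p = 4.69e-14).

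Inflammatory genes went both ways. Of 24 epithelial cytokines and chemokines 13 fell and 8 rose, 7 and 7 by at least 2-fold. Il23a, a subunit of interleukin 23, fell from 69.4 and 67.6 to 1.42 and 1.42 CPM (log2 fold change -5.59, SE 0.09204, adjusted p = 1.79e-14). Ccl20, a chemokine, fell from 3.63 and 3.44 to 0.0293 and 0.1003 CPM. The alarmin Il33 rose from 49.2 and 50.5 to 423 and 454 CPM (log2 fold change 3.14, SE 0.0674, adjusted p = 2.08e-13), and the receptor antagonist Il1rn from 89.01 and 78.1 to 167 and 178 CPM (log2 fold change 1.05, adjusted p = 4.21e-09). Of 25 interferon-induced genes 12 rose, 2 fell and 11 did not pass. Among the risers were Mx1 (0.733 and 0.992 to 18.2 and 18.8 CPM, log2 fold change 4.42, adjusted p = 5.17e-12) and Irf1 (19.4 and 18.5 to 49.2 and 48.6 CPM, log2 fold change 1.37, adjusted p = 4.63e-09). The classical members Isg15 (0.195 and 0.165 against 0.132 and 0.117 CPM) and Ifit1 (0.309 and 0.281 against 0.146 and 0.0836 CPM) lay below 1 CPM and did not pass. Ifit1 was called as fallen in 4 of the alternatives. Of 16 NF-kB genes 6 fell and 5 rose, a share called near the 69% over all genes. The inhibitor Nfkbia rose (16.6 and 16.5 to 41.1 and 39.7 CPM) and Nfkb2 fell (86.96 and 74.2 to 35.3 and 33.9 CPM). Of 9 tested complement, acute-phase and antimicrobial genes 6 rose, and 1, Lcn2, fell, from 4.72 and 4.46 to 0.1901 and 0.117 CPM (log2 fold change -4.86, adjusted p = 4.18e-09). Wfdc2, a secreted protease inhibitor, rose from 841 and 733 to 1591 and 1552 CPM (log2 fold change 0.998, adjusted p = 6.81e-09).

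Clock genes fell in 12 of 18 cases and rose in 5 (median -0.56), and the labels give no harvest hour. Ciart fell from 62.9 and 58.6 to 5.22 and 5.43 CPM (log2 fold change -3.51, SE 0.0747, adjusted p = 1.93e-13). Clock fell from 304 and 298 to 106 and 105 CPM (log2 fold change -1.51, adjusted p = 6.91e-12), and its partner Arntl from 52.5 and 51.9 to 23.03 and 22.4 CPM (log2 fold change -1.20, adjusted p = 5.2e-10). Bhlhe40, a repressor, rose from 42.1 and 42.6 to 159.6 and 158 CPM (log2 fold change 1.91, adjusted p = 9.77e-13).

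Few genes passed from silence to expression. With at least 1 CPM in both libraries of one group and at most 0.1 CPM in both of the other, 19 genes were on with MI-503 and 16 were off. The clearest of the former, Cd300lb, an immune-type receptor, had 0 counts in DMSO and 820 with MI-503, at least 259.8-fold higher by the same floor, and 0 and 0.114 CPM in dKO MI-503. Mgp, a matrix calcification inhibitor, rose from 0.0814 and 0.0661 to 5.25 and 4.96 CPM and Aldh1l1, a folate enzyme, from 0.0488 and 0.0992 to 5.45 and 5.36 CPM. Those that went off included Sptlc3, a subunit of sphingolipid synthesis, with 313 counts in DMSO and 0 with MI-503, at least 109.7-fold lower, and Grb10, an imprinted growth adaptor (3.5 and 4.22 to 0.0731 and 0.0334 CPM).

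At the other end, 1024 tested genes had a 95% interval of the log2 fold change within 0.25 of 0. The most abundant by CPM were mt-Co1 (-0.17 to 0.14), Rpl4 (-0.15 to 0.06), Tpt1, Npm1 and the linker gene Dst (-0.12 to 0.08). The largest gains in CPM came from the elongation factors Eef1a1 (4597 and 4543 to 12002 and 12639 CPM) and Eef2 (3125 and 2744 to 5498 and 5216 CPM) and from Krt7, Krt5 and Scd2. For each of these genes both WT DMSO libraries were the lowest of all. In dKO DMSO Eef1a1 had 11410 and 10328 CPM and Eef2 4901 and 5723 CPM. What part those WT DMSO libraries have in the gains was not tested. The largest losses came from Hspa5, Hsp90b1, mt-Cytb, Hsp90aa1 and Calr.

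The effect of MI-503 in WT differed from that in the labelled dKO organoids for 7915 of the genes tested (46.8%), by the interaction of the same fit. Of the 11669 genes called in WT, 7017 (60.1%) passed that test, 7015 were called in dKO in the same direction, 856 in the opposite direction and 3798 not at all. Hsph1 shows the difference for the stress genes: 1966 and 2231 to 116 and 122 CPM in WT, against means of 94.87 and 91.71 CPM in dKO DMSO and dKO MI-503, an interaction of 4.10 (adjusted p = 6.15e-12). Gpnmb rose in both genotypes, from 65.04 and 63.6 to 476 and 448 CPM in dKO, and its rise was larger in WT (interaction -1.05, adjusted p = 1.46e-07). For Scd2 the dKO values were 633 and 595 and 3398 and 3402 CPM, with an interaction of -0.65 (adjusted p = 2.93e-06). Meis1 fell in dKO from 30.8 and 29.4 to 10.4 and 11.3 CPM, and its interaction of 0.08 did not pass (adjusted p = 0.555).

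**Figure D5:**
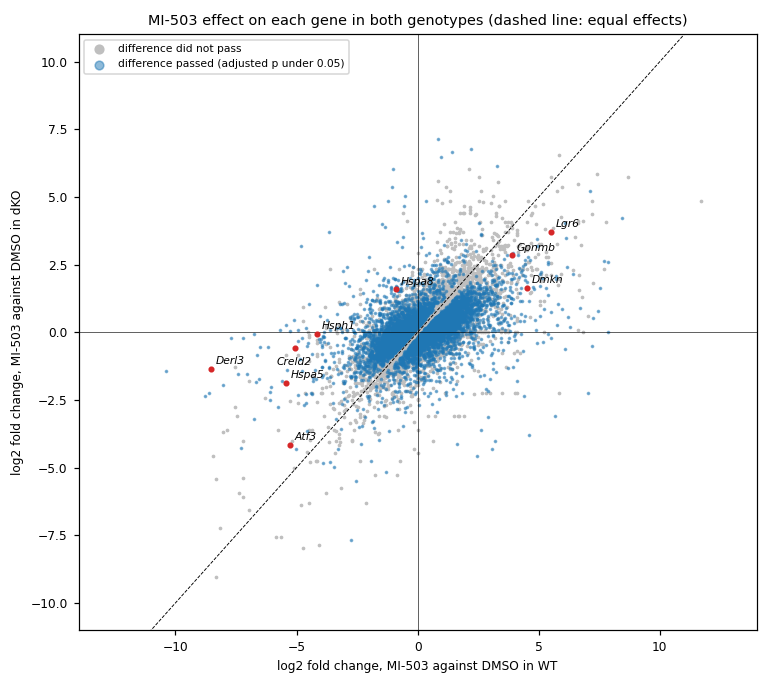
Log2 fold change of MI-503 against DMSO for each tested gene, in WT (horizontal axis) and in the labelled dKO organoids (vertical axis), with genes whose difference passed in blue and the line of equal effects dashed. Hsph1 lies near 0 in dKO and at -4.14 in WT, whereas Atf3 and Gpnmb lie on the same side in both.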

How the data were processed

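PolyA RNA was sequenced from WT and labelled Kmt2c/Kmt2d dKO urothelial organoids, with 2 libraries in each of 4 groups. The authors deposited 1 table of raw counts per gene, and 1 row with no gene name was left out. The submitters' processing notes name STAR, Bowtie2, MACS3, deepTools, SICER and the builds GRCm38 and mm10. Versions, the counting program and its strand setting were not given in the sources used here, and overlapping and antisense genes cannot be told apart. The other 32 samples are not analysed here.

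Genes passed edgeR's filterByExpr (minimum count 10, minimum total 15). All 8 libraries were fitted with 1 mean per group, TMM scaling, a prior count of 0.125 and the quasi-likelihood F test of edgeR 4.0.16 (limma 3.58.1, R 4.3.3), with 4 residual degrees of freedom and Benjamini-Hochberg adjustment over all genes. The standard error was taken as the log2 fold change divided by the root of F, and the biological coefficient of variation was 5.14%. With 2 libraries against 2 an exact permutation test of a single gene cannot go below p = 0.33, so the tests rest on spread shared across genes. Intervals for ratios of counts and floors of 3 counts cover counting error only. On simulated data the fit missed a sizeable part of the changed genes, also at 2-fold, and the share of false calls lay above the nominal rate. Few genes were changed there, evenly up and down, whereas most genes were called in the real data. The simulation therefore does not show how the scaling behaves in that setting.

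Genes named were the 10 largest rises and falls above a mean of 50 CPM in WT with groups apart, the 10 largest gains and losses in CPM, the 2 largest rises and falls of each list above 5 CPM, the 5 most abundant genes with an interval within 0.25 of 0, the 5 largest interactions per direction above 20 CPM, a fixed list of genes, and further members where a list is described. The members and the 69 lists were chosen with earlier results of these data known. A few genes that this rule names are not reported here. Promoters were searched with Python 3.11.15 and pandas 2.3.3. The alternatives tried were scaling by library size only or by RLE size factors, DESeq2 1.42.0, fits with no filter or with one of 50 counts in 2 libraries, a fit of the WT libraries only, a replicate block, a threshold of 1.5-fold (glmTreat) and leaving out each library.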

Additional observations from a re-analysis of the deposited data

Results flagged for a closer look

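Effects of MI-503 that differed between the labelled dKO and the WT organoids in the interaction test of the fit were marked for a closer look, which was the case for 7915 genes. Of these, 856 were called in opposite directions in the 2 genotypes. Among genes with a mean of at least 20 CPM over the 8 libraries, the largest differences were of 2 kinds. The first fell in WT and moved less in dKO: Derl3, with an interaction (dKO minus WT, log2) of 7.18, Hspa1b with 4.57, Creld2 with 4.46, Sdf2l1 with 4.17 and Hsph1 with 4.1. Sdf2l1, an ER co-chaperone, had 293 and 289.8 CPM in WT DMSO and 22.8 and 20.99 in WT MI-503, against 13.2 and 13.8 and 18.8 and 17.8 CPM in dKO. All 5 of these genes were highest in the WT DMSO libraries, which stood apart for ER chaperone and heat-shock genes, and the part of those libraries in the differences was not tested.

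The second kind had a negative interaction. The prolactin family genes Prl2c2 and Prl2c3 had interactions of -5.27 and -4.22; Prl2c2 measured 0.261 and 0.215 CPM in WT DMSO and 58.6 and 54.03 in WT MI-503, and 7.096 and 6.88 and 42.5 and 42.6 CPM in dKO, and both are close copies between which reads may be split. Ackr3, a scavenger receptor for chemokines, had -3.02, with 2.198 and 2.41 to 31.6 and 28.9 CPM in WT and 39.5 and 39.1 to 62.1 and 64.6 CPM in dKO. Cdsn, corneodesmosin, had -2.95, with 83.05 and 79.9 to 14.97 and 13.3 CPM in WT and 6.701 and 7.98 to 0.119 and 0.211 CPM in dKO. Dmkn had -2.87, with 6.495 and 6.23 to 147 and 146 CPM in WT and 7.91 and 9.27 to 27.7 and 26.4 CPM in dKO. Genes of lower level are not ranked here, among them Acta1 with an interaction of -7.85 and Alox15 with -4.37. With 2 libraries a group, no library could be tested for standing apart from its own group.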

How the results depend on the processing

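The genes risen and fallen numbered 5311 to 6014 and 5206 to 5764 when each library was left out in turn, and 88.9% to 99.5% of the calls were kept, with none in the opposite direction. Against a change of 1.5-fold, glmTreat gave 3273 risen and 2827 fallen genes, since it asks for more than a difference from 0. With library size only the median of all genes moved from 0.031 to 0.205 (log2), and 60.8% of calls were rises, against 51.1%. With the replicate block 5851 genes rose, 5608 fell and 7572 passed the interaction. Same-numbered libraries did not deviate together (correlations of -0.0886 to 0.0585), so the numbers were not taken as pairs, and of the genes named only Vcp lost its call under the block. The interaction was not run on the WT libraries only.

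Genes near 0 changed sign. With library size only the log2 fold changes were 0.157 for mt-Co1, 0.154 for Dst, 0.158 for Pparg, 0.131 for Rpl4, 0.094 for Kmt2b, 0.072 for Tpt1, 0.066 for Ebp and 0.011 for Lss. With no filter they were 0.056 for mt-Co1, 0.053 for Dst, 0.056 for Pparg and 0.029 for Rpl4, with the stricter filter 0.058, 0.055, 0.059 and 0.032 for the same genes, and with RLE size factors or DESeq2 0.012 for mt-Co1, 0.009 for Dst and 0.013 for Pparg. Leaving out each library in turn, Kmt2b ranged from -0.165 to 0.008, Npm1 from -0.025 to 0.075, mt-Co1 from -0.072 to 0.038 and Pparg from -0.069 to 0.026. The median of the menin complex became 0.019, of Polycomb 0.111, of the proteasome 0.033, of EGF and ERBB 0.089 and of autophagy 0.062 with library size only. Polycomb gave 0.009 with no filter and 0.012 with the stricter one. Neural markers, at -1.05 in the main fit, gave 0.344 with the stricter filter, where the median covers only the members that the filter keeps. MHC class I, at 0.004, gave -0.003 on the WT libraries only and -0.046 and -0.015 without WT DMSO replicate 2 and WT MI-503 replicate 1. For the other lists the cause was not tested. Of the genes that did not pass, Cdkn2c, Mki67, Npm1 and Pan2 did with library size only (0.403, 0.258, 0.199 and 0.292) and with no filter (0.301, 0.157, 0.098 and 0.191). Cdkn2c, Mki67 and Pan2 also did with the stricter filter, Cdkn2c without WT MI-503 replicate 2 (0.354) and Pan2 with RLE size factors. Ifit1 passed as a fall with no filter (-1.252), on the WT libraries only (-1.334) and without either dKO MI-503 library (-1.324). Depth limits genes below about 0.1 CPM, whose changes rest on few counts.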

Other observations

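Some groups stand outside the comparisons above. Guidance molecules of the ephrin, semaphorin and plexin families rose in 19 of 33 genes and fell in 9, of which 9 and 2 by at least 2-fold. Sema4b rose from 66.1 and 62.6 to 209 and 196 CPM (log2 fold change 1.65, adjusted p = 1.34e-11), and Sema3c, a secreted semaphorin, fell from 1059 and 1040.0 to 345 and 347 CPM (log2 fold change -1.60, adjusted p = 2.49e-12). Genes of MHC class I presentation rose in 6 and fell in 3 of 15 cases, a share called below the 69% over all genes. The peptide-loading chaperone Tapbp rose from 37.9 and 35.6 to 85.7 and 84.3 CPM (log2 fold change 1.21, adjusted p = 1.99e-09). The heavy chain H2-D1 fell from 104 and 102 to 68.2 and 65.1 CPM (log2 fold change -0.63, adjusted p = 8.27e-07). In the Steap family, which includes iron and copper reductases, Steap1 fell from 192 and 195 to 36.6 and 35.5 CPM (log2 fold change -2.42, adjusted p = 1.19e-13) and Steap2 from 339.6 and 328 to 166 and 168 CPM, while Steap3 rose from 3.01 and 2.81 to 37.5 and 34.1 CPM (log2 fold change 3.62, adjusted p = 1.62e-11). The mitochondrial carrier Ucp2 rose from 0.684 and 0.579 to 8.53 and 7.22 CPM (log2 fold change 3.64, adjusted p = 2.05e-10), and in dKO it measured 2.43 and 2.82 CPM in DMSO and 5.06 and 4.59 CPM with MI-503.

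Fer1l6, a ferlin family gene in no list, was among the 10 largest rises above a mean of 50 CPM in WT, from 10.7 and 9.67 to 93.1 and 91.5 CPM (log2 fold change 3.18, adjusted p = 3.46e-13). Ccnd2 and the antioxidant target Ftl1 were among the 10 largest gains in CPM, as were S100a6, a calcium-binding protein (1458 and 1368 to 2765 and 2816 CPM), and Tubb5, a tubulin (312 and 294 to 1576 and 1522 CPM).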
